A study of Mus musculus with 8 samples.

Results

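Cholesterol synthesis was followed through 8 genes, of 22337 in the deposited table: the enzyme genes Hmgcs1, Idi1, Sqle, Lss, Cyp51, Msmo1 and Dhcr7, and Srebf2, the gene of their transcriptional regulator. They were taken by name, as the rows whose Ensembl identifier carries one of these symbols in the GENCODE M21 annotation; Cyp51 stands in the deposited table under its synonym Cyp51a1. The tissue was the nucleus accumbens, in the ventral striatum, of male C57BL/6 mice that had received morphine (4 libraries) or saline (4 libraries), and the series calls the exposure chronic. The labels give no dose, schedule or age, and do not say whether each library was a separate animal; p-values therefore measure only how these libraries spread, and that spread may be technical. Morphine is an opioid that acts mainly through the mu opioid receptor. The effect of that exposure on expression in this region is the question the comparison addresses.

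The brain makes nearly all of its own cholesterol, because lipoproteins of the blood do not cross the blood-brain barrier. The carbon skeleton is built from acetyl-CoA through mevalonate and isoprene units to squalene, closed into lanosterol, and trimmed through a series of sterols to cholesterol. Oligodendrocytes need much of it for myelin, and astrocytes pass it to neurons. SREBP2, the product of Srebf2, is held in the membrane of the endoplasmic reticulum when sterols are plentiful. When they run low it is carried to the Golgi and cut, and the freed part enters the nucleus and switches on the enzyme genes of the pathway and its own gene. It acts together with NF-Y, which binds CCAAT boxes, and with Sp1, which binds GC boxes.

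The promoters are shown because these genes are known for being switched together through such short elements. RefSeq start sites on GRCm38.p6 were found for 7 of the 8 genes; Sqle had no entry. Each line gives the 150 bases before the start, 5′ to 3′ on the strand of the gene, with 3 kinds of match in capitals: the sterol element TCACNCCAC, the CCAAT box CCAAT and the GC box GGGCGG, each searched on both strands, so that a match on the other strand reads ATTGG or CCGCCC. No match overlapped another. Where a gene has several start sites the most upstream one is shown.
Hmgcs1 (chr13:119690201-119690350, plus strand): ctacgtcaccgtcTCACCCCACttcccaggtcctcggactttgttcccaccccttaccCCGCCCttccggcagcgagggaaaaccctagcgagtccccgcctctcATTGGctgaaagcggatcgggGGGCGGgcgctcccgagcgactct
Idi1 (chr13:8885456-8885605, plus strand): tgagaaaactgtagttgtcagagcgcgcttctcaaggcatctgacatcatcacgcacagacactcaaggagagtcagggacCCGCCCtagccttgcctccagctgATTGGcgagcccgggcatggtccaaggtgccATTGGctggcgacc
Lss (chr10:76531455-76531604, plus strand): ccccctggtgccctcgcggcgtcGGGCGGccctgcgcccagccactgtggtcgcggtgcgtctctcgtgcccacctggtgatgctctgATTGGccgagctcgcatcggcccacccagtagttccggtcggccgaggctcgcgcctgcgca
Cyp51 (chr5:4104698-4104847, minus strand): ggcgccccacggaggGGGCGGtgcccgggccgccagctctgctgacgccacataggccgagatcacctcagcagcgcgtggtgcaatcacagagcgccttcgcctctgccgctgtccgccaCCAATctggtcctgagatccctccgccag
Msmo1 (chr8:64733579-64733728, minus strand): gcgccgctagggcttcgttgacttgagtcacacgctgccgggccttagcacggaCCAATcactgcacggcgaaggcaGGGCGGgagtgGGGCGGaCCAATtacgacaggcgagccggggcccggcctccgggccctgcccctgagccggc
Dhcr7 (chr7:143823017-143823166, plus strand): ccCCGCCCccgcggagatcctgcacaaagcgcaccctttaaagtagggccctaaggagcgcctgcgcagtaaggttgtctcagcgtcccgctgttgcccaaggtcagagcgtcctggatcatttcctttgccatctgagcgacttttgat
Srebf2 (chr15:82147119-82147268, plus strand): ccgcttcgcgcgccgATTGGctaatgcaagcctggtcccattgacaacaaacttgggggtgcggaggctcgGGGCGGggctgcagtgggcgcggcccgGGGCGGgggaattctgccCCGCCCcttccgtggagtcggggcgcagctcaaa

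Searched over the whole window, from 250 bases before to 50 after a start, the sterol element was found in 1 of the 7 genes, Hmgcs1, and in 1.24% of all 32851 RefSeq windows. It begins 137 bases before the Hmgcs1 start. The 7 genes have 9 windows in the table, 3 of them for Dhcr7. A CCAAT box was found in 7 of the 9 (37.4% of all windows) and a GC box in 8 of the 9 (35.7% of all windows), and each gene had at least 1 window with either. The CCAAT boxes of Dhcr7 lie in the window of another of its start sites, and the sequence shown for it holds only a GC box. These are matches of letters in a window and show no binding.

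Values are FPKM, fragment counts scaled by transcript length and by the mapped fragments of the library. Levels of different genes are set side by side below only as a description. Priming, amplification and overlapping genes may affect genes unequally, and the scaling does not correct for that. The sum of all values in a library lay between 480003.6 and 540104.1; the read depth behind them is unknown, and no counting error can be given. Differences are given on the scale of log2(FPKM + 1), morphine minus saline, tested with limma over the 12536 genes that reached 1 FPKM in 4 or more libraries, and adjusted by Benjamini-Hochberg over all of them. All 8 genes passed that filter. The marker genes of the tissue were present in every library but at unequal levels. The 18 striatal neuron markers summed to between 446.4 and 558.8 FPKM in the morphine libraries. They summed to between 1326 and 1579.2 in saline replicates 1, 2 and 4, and to 6221.3 in saline replicate 3. None was at 0, and 12 of the 18 fell with morphine, where 1.48% of all genes tested fell. The 12 markers of cortical glutamatergic neurons summed to between 1782.1 and 1986.6 FPKM in the morphine libraries, to between 1656.8 and 1722 in those 3 saline libraries, and to 1139 in saline replicate 3. Mitochondrially encoded genes held 6.09 to 7.94% of the summed FPKM in the morphine libraries, against 9.09 to 12.62% in the saline libraries. Saline replicate 3 therefore stands apart in its neuronal markers. Its striatal sum was above its cortical sum, and in every other library the striatal sum was the lower of the pair. Values without saline replicate 3 are given below, but standing apart does not show it to be the less typical of the accumbens. The morphine libraries lie below every saline library in the striatal sum and above every saline library in the cortical sum. In bulk tissue, fewer cells of a type and less RNA per cell cannot be told apart.

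None of the 8 genes passed the test between morphine and saline. limma called 0 of them at an adjusted p under 0.05, where it called 316 of all 12536 genes tested, or 2.52% (1.04% higher and 1.48% lower with morphine). At an unadjusted p under 0.05 there were 2 of the 8, Sqle and Dhcr7, or 25.0%, beside 20.1% of all genes. The differences had both signs, 4 positive and 4 negative, with a median of 0.02 on the log2 scale, where the median of all genes tested was 0.01. The 95% intervals of the 8 differences, each taken alone, lay between 0.56-fold (lower bound, Dhcr7) and 1.53-fold (upper bound, Sqle) on the FPKM + 1 scale.

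**Figure D1:**
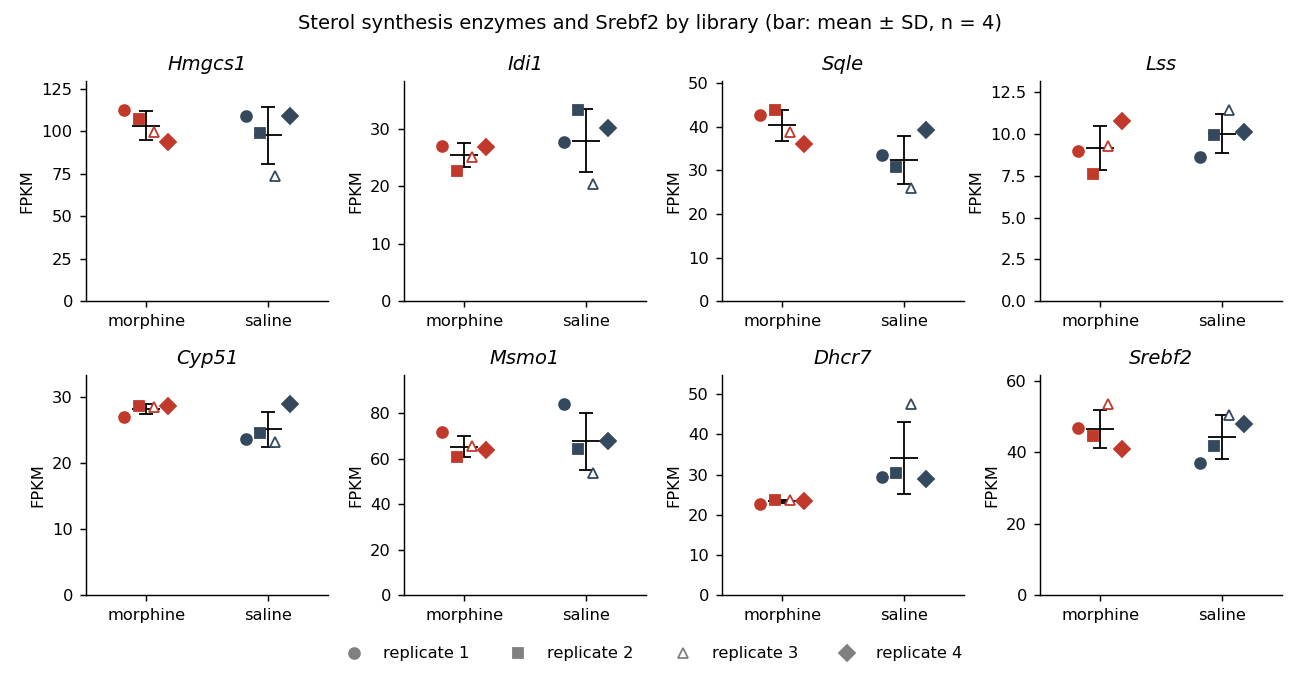
FPKM of the 8 genes in each of the 4 morphine and 4 saline libraries, 1 symbol per replicate number, with the mean and SD of each group as bars; every axis starts at 0. The groups overlap in all genes but Dhcr7, whose 4 morphine values lie between 22.77 and 23.68 FPKM and below all saline values, and the open triangle of saline replicate 3 is at the edge of the saline values in every panel.

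Gene positions below are those of GENCODE M21 on GRCm38, the mm10 build. Hmgcs1 (ENSMUSG00000093930, chr13:119690379-119708260, plus strand) makes HMG-CoA, from which mevalonate is formed. It had the highest level of the 8 genes. It had 112.59, 107.32, 99.51 and 93.38 FPKM in morphine replicates 1 to 4, against 109.10, 98.67, 73.64 and 108.69 FPKM in saline replicates 1 to 4. All saline values but that of replicate 3, which is the lowest of all, lie within the morphine range. The difference was 0.09 ± 0.14 (log2, SE; limma adjusted p = 0.745), and -0.03 without saline replicate 3. Idi1 (ENSMUSG00000058258, chr13:8885501-8892451, plus strand) interconverts the pair of isoprene building blocks. It had 27.09, 22.69, 25.14 and 26.92 FPKM with morphine, against 27.71, 33.35, 20.47 and 30.21 FPKM with saline. The saline values reach both above and below all morphine values, and the difference was -0.11 ± 0.15 (log2, SE; limma adjusted p = 0.720). It was -0.25 without saline replicate 3 and -0.02 without saline replicate 2.

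Sqle (ENSMUSG00000022351, chr15:59315077-59331192, plus strand) encodes squalene epoxidase, which carries out the first oxygen-dependent step and a rate-limiting one of the sterol part of the pathway. It had 42.65, 43.92, 38.88 and 36.18 FPKM in the morphine libraries, against 33.55, 30.73, 26.02 and 39.19 FPKM in the saline libraries. All morphine values but those of replicates 3 and 4 lie above all saline values, and saline replicate 4 lies inside the morphine range. The means were 40.4 ± 3.54 FPKM with morphine and 32.4 ± 5.51 FPKM with saline (SD, n = 4 each), a difference of 0.32 ± 0.13 (log2, SE) that did not pass (limma adjusted p = 0.208). Lss (ENSMUSG00000033105, chr10:76531588-76557138, plus strand) closes the oxidised squalene into lanosterol and had the lowest level. It had 9.01, 7.60, 9.26 and 10.77 FPKM with morphine, against 8.60, 9.93, 11.45 and 10.11 FPKM with saline, with overlapping groups and a difference of -0.12 ± 0.14 (log2, SE; limma adjusted p = 0.669); it lay between -0.19 and -0.04 when 1 library was left out, and was -0.06 without saline replicate 3.

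Cyp51 (ENSMUSG00000001467, chr5:4081145-4104746, minus strand) and Msmo1 (ENSMUSG00000031604, chr8:64718139-64733792, minus strand) encode enzymes that take methyl groups off lanosterol, Cyp51 first and Msmo1 at a later step. Cyp51 had 26.98, 28.53, 28.49 and 28.52 FPKM in the morphine libraries, against 23.64, 24.51, 23.18 and 28.96 FPKM in the saline libraries. Saline replicates 1, 2 and 3 lie below all morphine values and saline replicate 4 lies above them. The difference was 0.16 ± 0.10 (log2, SE; limma adjusted p = 0.404). Its spread within groups, an SD of 0.10 on the log2 scale, was smaller than that of most genes, whose median was 0.22. Msmo1 had 71.49, 60.62, 65.45 and 63.66 FPKM with morphine, against 84.21, 64.35, 53.83 and 67.79 FPKM with saline. Saline replicate 1 lies above and saline replicate 3 below all morphine values, and the difference was -0.03 ± 0.13 (log2, SE; limma adjusted p = 0.920).

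Dhcr7 (ENSMUSG00000058454, chr7:143823145-143848410, plus strand) encodes 7-dehydrocholesterol reductase, which makes cholesterol itself in the last step of one branch. It was the gene among the 8 whose groups did not overlap, an arrangement found in 12.7% of all genes tested (6.56% higher and 6.1% lower with morphine). It had 22.77, 23.55, 23.68 and 23.36 FPKM in the morphine libraries, against 29.42, 30.32, 47.65 and 29.00 FPKM in the saline libraries. The morphine values are nearly equal to each other; saline replicate 3 lies far above the other saline values, which are also close together. The means were 23.3 ± 0.402 FPKM with morphine and 34.1 ± 9.05 FPKM with saline (SD, n = 4 each). The difference was -0.50 ± 0.15 (log2, SE) and did not pass (limma adjusted p = 0.109). Without saline replicate 3 it was -0.33 with an adjusted p of 0.107, and over all 19 alternative settings the adjusted p lay between 0.0693 and 0.839.

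Srebf2 (ENSMUSG00000022463, chr15:82147181-82205379, plus strand) had 46.85, 44.62, 53.64 and 41.01 FPKM with morphine, against 36.97, 41.66, 50.41 and 48.03 FPKM with saline. The groups overlap over most of their range, and the difference was 0.07 ± 0.13 (log2, SE; limma adjusted p = 0.792), with an interval of 0.87-fold to 1.28-fold on the FPKM + 1 scale. These values are transcript levels; SREBP2 is regulated largely by transport and cleavage of the protein, which the data do not measure.

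**Figure D2:**
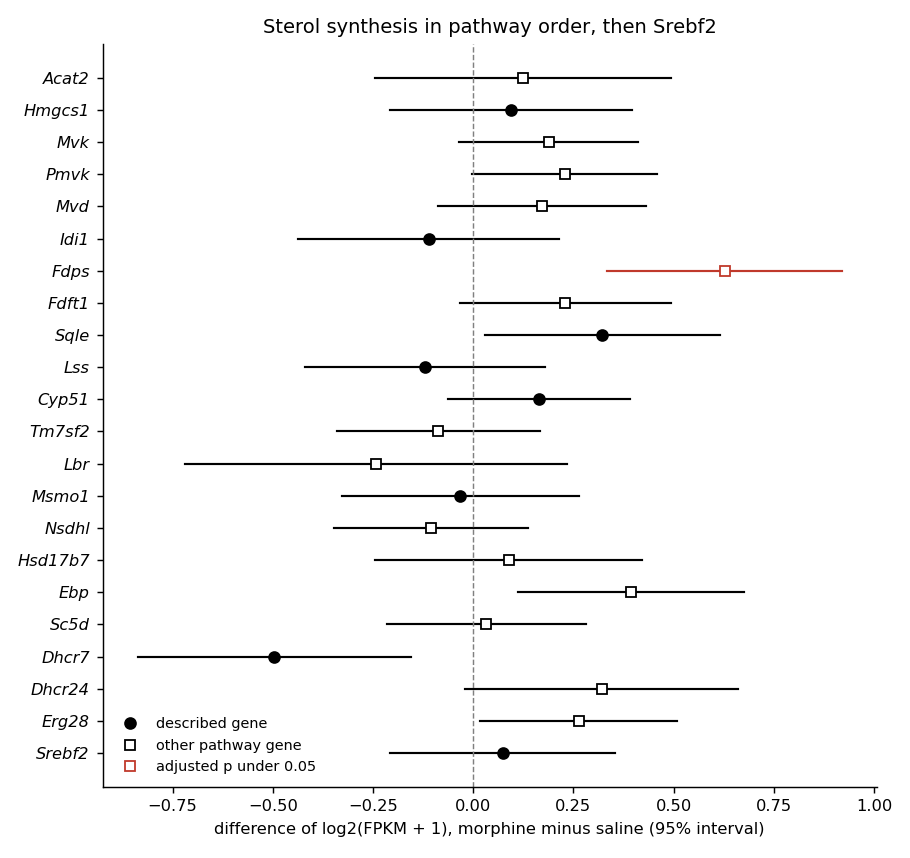
Difference of log2(FPKM + 1), morphine minus saline, with its 95% interval from limma, for genes of the synthesis pathway in their order of action and for Srebf2; filled circles are the genes described one by one and open squares the other pathway genes. Fdps, in red, is the gene with an adjusted p under 0.05; of the filled circles, the intervals of Sqle and Dhcr7 leave out 0, on opposite sides.

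The order of the levels was Hmgcs1, Msmo1, Srebf2, Sqle, Dhcr7, Idi1, Cyp51 and Lss, from a mean of 100.4 FPKM over the 8 libraries for Hmgcs1 to 9.59 FPKM for Lss. Hmgcs1 was above Msmo1, Msmo1 above Srebf2, Srebf2 above Sqle and Cyp51 above Lss in all 8 libraries, and Sqle was above Dhcr7 in 7 of them, all but saline replicate 3. Dhcr7, Idi1 and Cyp51, with means of 28.7, 26.7 and 26.6 FPKM, had no fixed order. Dhcr7 was above Idi1 in 3 libraries, and Idi1 was above Cyp51 in 4. Dhcr7 was below Cyp51 in every morphine library and above it in every saline library. The range over libraries was separate from that of the next gene for Msmo1, from 53.83 to 84.21 FPKM, and for Cyp51, from 23.18 to 28.96 FPKM.

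The 8 genes did not vary as one. Over the 8 libraries, Pearson's r between pairs of them ran from -0.88 (Sqle and Dhcr7) to 0.82 (Sqle and Cyp51), positive in 15 of 28 pairs and negative in 13; the libraries share their group and saline replicate 3, so these are descriptions. In 5 genes saline replicate 3 was the lowest saline library, Hmgcs1, Idi1, Sqle, Cyp51 and Msmo1, and in the other 3 it was the highest, Lss, Dhcr7 and Srebf2. Among all genes tested that library was the lowest of the saline libraries in 29.1% and the highest in 31.0%. It lay below the mean of the other saline libraries by a log2 difference of -0.55 for Idi1, -0.51 for Hmgcs1, -0.41 for Msmo1, -0.39 for Sqle and -0.14 for Cyp51, and above it by 0.24 for Lss, 0.26 for Srebf2 and 0.67 for Dhcr7. Without that library 3 of the 8 differences between morphine and saline were positive, with a median of -0.05 (log2), and 1 reached an unadjusted p under 0.05. The differences were then 0.23 for Sqle, 0.13 for Cyp51, 0.14 for Srebf2 and -0.13 for Msmo1, beside those given above for Hmgcs1, Idi1, Lss and Dhcr7.

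**Figure D3:**
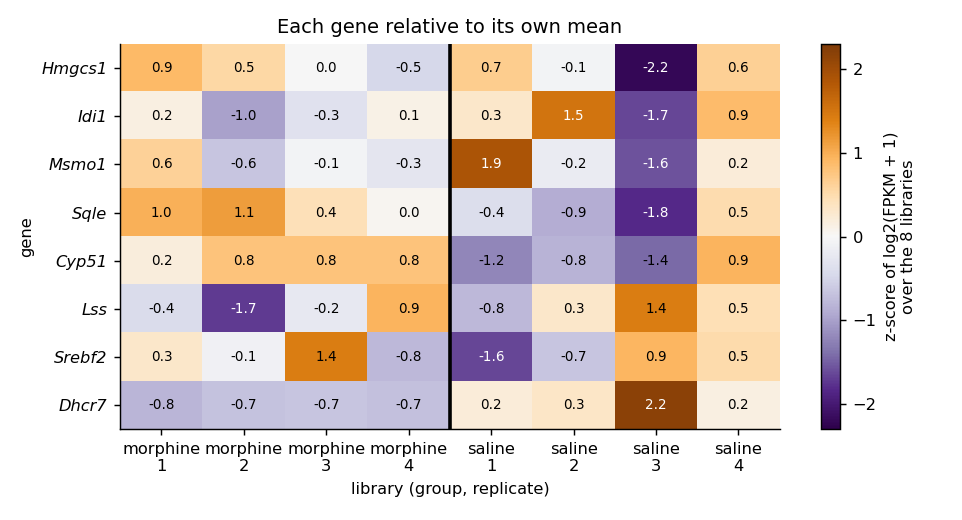
Level of each of the 8 genes in each library as a z-score of log2(FPKM + 1) over the 8 libraries, morphine left of the black line and saline right of it; orange is above and purple below the mean of the gene. Saline replicate 3 is the darkest column, from -2.2 for Hmgcs1 to 2.2 for Dhcr7, and Dhcr7 is below its mean in all 4 morphine libraries.

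The level of Sqle relative to Dhcr7, a ratio picked after the values were seen and given without a test, was 1.87, 1.86, 1.64 and 1.55 in morphine replicates 1 to 4, against 1.14, 1.01, 0.546 and 1.35 in saline replicates 1 to 4. All morphine ratios are above all saline ratios, and saline replicate 3 has the lowest. Sqle relative to Srebf2 was 0.910, 0.984, 0.725 and 0.882 with morphine, against 0.907, 0.738, 0.516 and 0.816 with saline, with overlap. Outside the gene lists used here, the genes whose log2 level was most like the mean z-score of the 8 genes were Zfand4, Abi1, Armcx4, Ncor1 and Hdgfl3, with r between 0.91 and 0.96 over 8 libraries and between 0.96 and 1.00 over the 4 saline libraries. Because the 8 genes differ in direction, that mean spans only from -0.52 in saline replicate 3 to 0.54 in saline replicate 4.

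Of the 22 genes that carry out sterol synthesis, 7 of them described above, 1 rose with morphine and none fell. Over all genes tested, 1.04% rose and 1.48% fell. Fdps, which makes farnesyl diphosphate, the branch point between sterols and other isoprenoids, had 144.84, 120.11, 143.91 and 121.72 FPKM in the morphine libraries, against 98.68, 76.25, 71.93 and 97.25 FPKM in the saline libraries. All morphine values are above all saline values. The difference was 0.63 ± 0.13 (log2, SE; limma adjusted p = 0.0435); Gm43738 overlaps it on the same strand, so reads may be split between them. The call depended on single libraries: it held without saline replicate 4 (adjusted p = 0.0368) and was lost without any of the other 7, with adjusted p between 0.0557 and 0.136 and differences between 0.55 and 0.70.

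Across the pathway list, 15 of 22 differences were positive, with a median of 0.14 on the log2 scale, where 52.0% of all genes tested were positive. At an unadjusted p under 0.05 there were 6 of 22 genes, or 27.3%, beside 20.1% of all genes, and the groups did not overlap in 6, where they did not overlap in 12.7% of all genes. Saline replicate 3 was the lowest saline library in 14 of the 22, or 63.6%. Without it the list median was 0.15, 13 of 22 differences were positive and no gene passed. At the negative end stood Dhcr7 and then Lbr, a sterol reductase that also anchors chromatin at the nuclear envelope, at -0.24 ± 0.22 (log2, SE; limma adjusted p = 0.572); its saline replicate 4 had 8.01 FPKM, against 3.48 to 4.07 FPKM in the other saline libraries, and without that library its difference was -0.02.

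None of 13 genes that control SREBP passed, with 3 at an unadjusted p under 0.05 (Insig2 and Vcp higher, Srebf1 lower), or 23.1%, beside 20.1% of all genes. The list median was -0.13 on the log2 scale, and -0.05 without saline replicate 3. Insig2, one of the pair of proteins that hold the SREBP complex in the endoplasmic reticulum, had 44.57, 61.35, 41.99 and 46.90 FPKM with morphine, against 37.02, 32.43, 42.95 and 35.79 FPKM with saline (0.38 ± 0.14, log2, SE; limma adjusted p = 0.163). Insig1, the other of the pair and itself an SREBP target, had 26.69, 22.27, 27.43 and 26.68 FPKM with morphine, against 32.24, 28.44, 23.91 and 29.09 FPKM with saline (-0.13 ± 0.12, log2, SE; limma adjusted p = 0.579; -0.21 without saline replicate 3). Both overlap between the groups. Scap, the escort of SREBP to the Golgi, differed by -0.10 ± 0.17 (log2, SE; limma adjusted p = 0.797), and by -0.01 without saline replicate 3. Srebf1, the paralogue of Srebf2 that acts mainly on fatty acid genes, averaged 16.4 ± 1.99 FPKM with morphine and 23.5 ± 4.85 FPKM with saline (SD, n = 4 each); 3 of its saline values lie above all morphine values and saline replicate 1, at 16.57 FPKM, lies among them (-0.48 ± 0.16, log2, SE; limma adjusted p = 0.141). Vcp, which pulls proteins out of the membrane for degradation, differed by 0.26 ± 0.12 (log2, SE; limma adjusted p = 0.244), and by 0.16 without morphine replicate 2.

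Of 19 genes of sterol uptake and transport 1 rose and none fell, beside 1.04% and 1.48% of all genes tested. The list median was -0.06 on the log2 scale. Lipa, the lysosomal acid lipase that frees cholesterol from esters taken up by the cell, had 13.09, 15.79, 15.32 and 12.58 FPKM in the morphine libraries, against 8.08, 7.20, 5.5 and 8.48 FPKM in the saline libraries. The groups are well apart, with saline replicate 3 lowest, and the difference was 0.88 ± 0.15 (log2, SE; limma adjusted p = 0.0231). Without saline replicate 3 it was 0.77 (adjusted p = 0.0218; range over all alternative settings 0.00977 to 0.715). The call was lost without morphine replicate 2, 3 or 4 or without saline replicate 2, with adjusted p between 0.0572 and 0.0889. Lrp8, a lipoprotein receptor of neurons, differed by 0.34 ± 0.22 (log2, SE; limma adjusted p = 0.413), by 0.19 without saline replicate 3 and by 0.55 without saline replicate 4. Cav1, the caveolin gene of vessel cells, had 4.51 to 5.90 FPKM with morphine, against 6.90 to 8.17 FPKM with saline, without overlap and without passing (-0.48 ± 0.12, log2, SE; limma adjusted p = 0.0687). Stard5, a sterol transfer protein gene, had 1.71 to 2.51 FPKM with morphine, against 3.38 to 7.21 FPKM in 3 saline libraries and 41.73 FPKM in saline replicate 3; its difference of -1.62 ± 0.58 (log2, SE) did not pass (limma adjusted p = 0.156) and was -0.90 without that library.

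None of the 14 tested genes, of 17 listed, for sterol efflux, esterification and breakdown passed; 4 did at an unadjusted p under 0.05, or 28.6% beside 20.1% of all genes, all lower with morphine, and the list median was -0.14 on the log2 scale. Clu, an apolipoprotein secreted by astrocytes, had 641.35 to 807.95 FPKM with morphine, against 870.22 to 1253.6 FPKM with saline, without overlap (-0.56 ± 0.14, log2, SE; limma adjusted p = 0.0615); it passed without saline replicate 3 (-0.64, adjusted p = 0.0381; range over all alternative settings 0.0176 to 0.912). Lcat, which esterifies cholesterol on lipoproteins, differed by -0.80 ± 0.27 (log2, SE; limma adjusted p = 0.134). Cyp46a1, the neuronal enzyme whose product carries cholesterol out of the brain, averaged 156.0 ± 9.56 FPKM with morphine and 132.6 ± 16.1 FPKM with saline (SD, n = 4 each; limma adjusted p = 0.261), and the transporter gene Abca7 differed by 0.24 ± 0.13 (log2, SE; limma adjusted p = 0.344).

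In the isoprenoid branch, Fdps was the 1 gene of 14 that rose, and none fell, beside 1.04% and 1.48% of all genes tested. The list median was -0.02 (log2). Rabggta, a subunit of the enzyme that prenylates Rab proteins, differed by 0.16 ± 0.09, and Fnta, a subunit of farnesyltransferase, and Coq2, of coenzyme Q synthesis, by -0.52 ± 0.36 and -0.40 ± 0.35 (log2, SE; limma adjusted p between 0.373 and 0.562). Morphine replicate 1 was the lowest library for both Fnta and Coq2. It had 9.68 FPKM of Fnta, where the other morphine libraries had 31.08 to 44.06 FPKM, and 13.10 FPKM of Coq2, where they had 28.61 to 47.28 FPKM; without it the differences were -0.08 for Fnta and -0.07 for Coq2. None of 15 genes listed as SREBP1 targets passed. They are genes of fatty acid metabolism and Srebf1 itself, which is counted above also among the genes that control SREBP. At an unadjusted p under 0.05 there were 6, Srebf1 among them, or 40.0%, all lower with morphine. Beside them stood 20.1% of all genes, with 1270 of 12536 lower. The list median was -0.21 on the log2 scale. Scd1, a fatty acid desaturase, had 18.44 to 24.97 FPKM with morphine, against 26.08 to 36.62 FPKM with saline, without overlap (-0.54 ± 0.14, log2, SE; limma adjusted p = 0.0728). At the positive end of that list, Me1, which supplies NADPH, differed by 0.29 ± 0.18 and the elongase Elovl6 by 0.21 ± 0.10 (log2, SE; limma adjusted p = 0.402 and 0.292); Me1 differed by 0.13 without saline replicate 3.

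**Figure D4:**
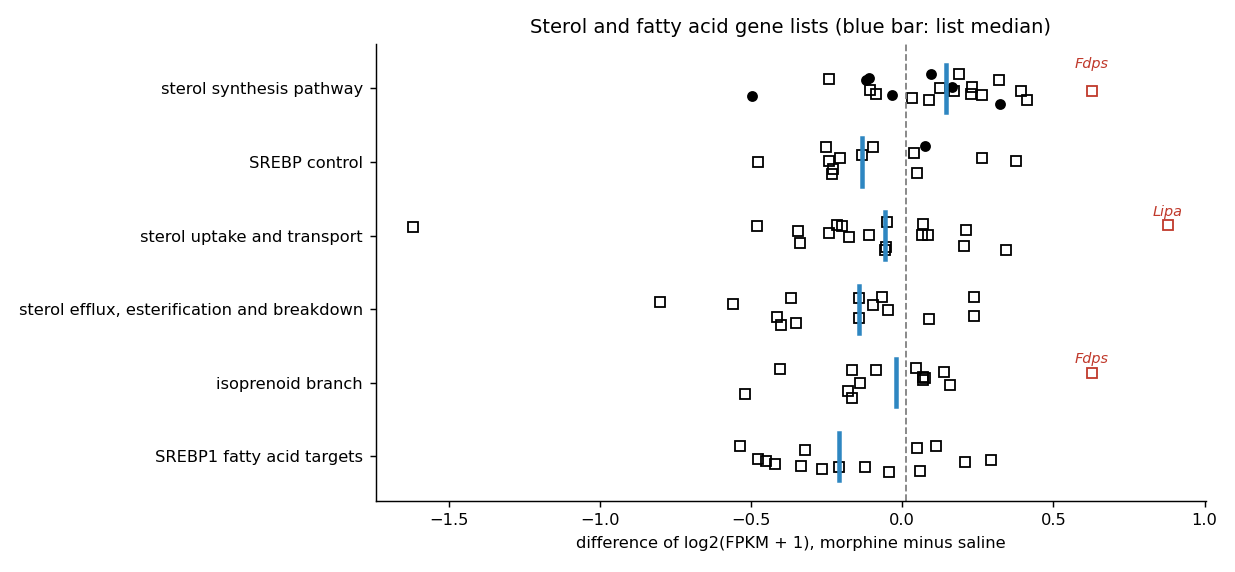
Difference of log2(FPKM + 1), morphine minus saline, of every tested gene in 6 lists, 1 mark per gene, with filled circles for the 8 genes, red for an adjusted p under 0.05 and a blue bar for the median of each list; the dashed line is the median of all genes tested, at 0.01, and marks are spread vertically within a list for legibility. Fdps, which is in 2 lists, and Lipa are the genes that passed, and the medians run from -0.21 in the fatty acid list to 0.14 in the synthesis list.

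Markers of several cell types stood lower in the morphine libraries, among them those of astrocytes and oligodendrocytes, which make much of the brain's cholesterol. Striatal neuron markers had a median of -2.29 (log2), with no overlap in 17 of 18. Without saline replicate 3 the median was -1.84 over the 16 still tested, of which 14 were called lower. The markers no longer tested had passed the filter only with saline replicate 3 counted, the highest saline library for all 18. Their part in the count of 17 is therefore not independent of the filter. Cortical glutamatergic markers went the other way, with a median of 0.62, 9 of 11 positive and 1 called higher. Without saline replicate 3 the cortical median was 0.29, with 7 of 11 positive and 2 called higher. Over all genes tested, 1.48% were called lower and 1.04% higher, 20.1% reached an unadjusted p under 0.05, and 52% of differences were positive. Of 15 astrocyte markers 3 fell (Slc4a4, Ntsr2 and Aldoc) and none rose, with a median of -0.42 on the log2 scale; they summed to between 1782.8 and 2227.5 FPKM with morphine, against 2545.1 to 3359.1 FPKM with saline, and none was at 0. Of 15 oligodendrocyte markers none passed, 8 reached an unadjusted p under 0.05 and all 15 differences were negative, with a median of -0.34; they summed to between 2105.2 and 3357.9 FPKM with morphine, against 3350.6 to 3797.7 FPKM with saline, and none was at 0. Among the 10 microglial markers none passed and 0 reached an unadjusted p under 0.05 (median -0.12, limma). Of 9 tested endothelial markers 3 fell (median -0.47; 115.7 to 127.4 FPKM in sum with morphine, against 158.9 to 187.2 FPKM with saline), of 7 tested oligodendrocyte precursor markers 1 fell (Bmp4; median -0.05), and of 4 tested choroid plexus and ependymal markers 1 fell (Clic6; median -1.43). Of 8 choroid plexus and ependymal markers listed, only those 4 passed the filter, and saline replicate 3 was the highest saline library for all 4. Without saline replicate 3 the precursor and choroid lists held no called gene. Their medians were then -0.13 over 7 tested markers and -0.84 over 3. In that fit 2 astrocyte markers fell (median -0.53) and 2 of 8 tested endothelial markers fell (median -0.46). With the mean of the astrocyte, oligodendrocyte or striatal list as a covariate the difference of Dhcr7 was -0.63, -0.44 and 0.17. These fits called 0, 0 and 2 of the 12536 genes with limma (810, 1257 and 1223 at an unadjusted p under 0.05). The striatal mean was 3.18 to 3.718 with morphine and 4.993 to 7.227 with saline (log2). The astrocyte mean was 6.124 to 6.476 with morphine and 6.615 to 7.011 with saline. Neither overlaps between the groups, so the fits with them cannot separate group from covariate. Beyond these values, the part of cell composition in the levels of the 8 genes was not tested.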

How the data were processed

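RNA from the nucleus accumbens was sequenced in 4 morphine and 4 saline libraries; per the labels' protocols, total RNA was reverse transcribed from an oligo-dT primer with template switching and amplified by PCR. Neither molecular identifiers nor strand marking is mentioned in it. The authors deposited 1 table of FPKM values, 1 column per library, rounded to 2 decimals. The build was mm10 and the tools were HISAT2, RSEM, StringTie 1.3.1, Bowtie2 2.2.8 and fastp 0.18.0, per the submitters' processing notes, which reached this work without the role of each; the annotation release and strand setting are not given in those sources. On the other strand, antisense genes overlap Hmgcs1 and Lss, Gm48574 overlaps Idi1 and Akap9 overlaps Cyp51; on the same strand, Gm49502 overlaps Srebf2 and Gm43738 overlaps Fdps, so their reads may be mixed.

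Of 22337 identifiers 22232 matched GENCODE M21, which gave symbols. Between any pair of libraries, 0.55 to 1.22% of values above 0 were identical, so none was a copy. Values were tested as log2(FPKM + 1) with limma 3.58.1 in R 4.3.3 (two-sided moderated test, variance prior following the mean, Benjamini-Hochberg adjustment), in genes that reached 1 FPKM in 4 or more libraries. The fit was tested on simulated data. Alternatives changed the pseudocount, filter, scaling, variance model, library weights, replicate block or cell type covariate, or left out 1 library. Named were the 8 genes, Insig1, Scap and Srebf1, list genes that passed, the 2 genes at each end of each list, and the 5 genes with the most similar profile; some genes of the lists, counted there, are not reported here one by one. The genes and lists were chosen with earlier results of these data known.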

Additional observations from a re-analysis of the deposited data

Results flagged for a closer look

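Of 88 sets of 4 values examined, 12 held a library far from the others of its group. Chance gives about 1 such set in 20 where sets are independent and normally distributed. These sets share libraries, and many genes were named for lying at the ends of their lists, so the count cannot be weighed against that rate. The number beside each flagged set is the gap to the nearest library as a share of the range of the group. Saline replicate 3 accounted for 5: it was highest for Dhcr7 (0.929), Stard5 (0.900), Elovl6 (0.875) and the mean of the striatal neuron markers (0.892), and lowest for the mean of the cortical glutamatergic markers (0.954). Among the 8 genes, the other was Cyp51, where morphine replicate 1, at 26.98 FPKM, was lowest (0.974); the 4 values span less than 2 FPKM. Morphine replicate 2 was lowest for Insig1 (0.855) and highest for Vcp (0.855) and Rabggta (0.851), and morphine replicate 3 was highest for Cyp46a1 (0.892). Saline replicate 4 was highest for Lbr (0.870) and saline replicate 2 for Abca7 (0.855).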

How the results depend on the processing

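limma called none of the 8 genes under any of the 19 alternatives, several of which called few genes or none of all tested. The number of all genes called was 316; it was 17 with no filter on low values, 706 with library weights, 5 with the replicate block, 2 with the striatal covariate, 0 with the astrocyte or oligodendrocyte covariate (810 and 1257 at an unadjusted p under 0.05) and 0 to 395 without 1 library, with 0 on leaving out morphine replicate 3, morphine replicate 4 or saline replicate 2 (1936, 2120 and 1955 at an unadjusted p under 0.05). With mitochondrially encoded genes removed, 26.8% of called genes were higher, where it was 41.1%. The 2 called genes of the sterol lists were 0 with no filter, the replicate block or any of the 3 covariates, 1 without the variance trend, 6 with library weights, and 0 to 2 without 1 library. Fdps also missed under quantile normalisation (adjusted p = 0.0522; range over all alternatives 0.0174 to 0.845). Same-numbered libraries showed no shared profile: they had correlations of -0.205 to 0.052, and 1 of 8 correlated best with its own number. These values cannot tell whether same-numbered libraries were paired or handled together, which the labels do not state.

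Signs turned as follows (log2). With the striatal covariate the differences were -0.007 for Sqle, -0.37 for Hmgcs1, -0.28 for Lrp8, -0.43 for Me1, 0.071 for Scap, 0.10 for Lss, 0.17 for Dhcr7 and 1.38 for Stard5. With the astrocyte covariate they were -0.25 for Srebf2, 0.035 for Idi1, 0.15 for Scap, 0.34 for Lcat, 0.34 for Fnta and 0.51 for Coq2, and with the oligodendrocyte covariate -0.035 for Srebf2. Without 1 library, Hmgcs1 ran from -0.033 to 0.154, Msmo1 from -0.134 to 0.078, Srebf2 from -0.007 to 0.138 and Scap from -0.195 to 0.032. The striatal and astrocyte means do not overlap between the groups, so the fits with them cannot separate group from covariate. The cause was not tested. Of 547 recomputed differences of named genes, 498 kept their sign and side of the threshold. Most named genes were not called to begin with, and several alternatives called few genes, so most could hardly change side. Of the called genes, Fdps was called in 5 of the 19 alternatives and Lipa in 10. FPKM hides read depth, so small differences of low genes such as Lss cannot be weighed against counting error.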
